A study of Mus musculus with 4 samples.

Results

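Plasmacytoid dendritic cell (pDC) nuclei of mouse liver were described in 10x Multiome data, which pair the RNA of a nucleus with its open chromatin (ATAC-seq). The nuclei were chosen from their RNA alone, among barcodes with at least 1000 UMIs (unique molecular identifiers, or counted RNA molecules). A pDC nucleus had at least 4 UMIs summed over 7 genes, namely Siglech, Grm8, Ccr9, Pacsin1, Cox6a2, Klk1 and Ly6d, called the rule genes here. Nuclei with over 1 UMI of the lymphocyte genes Txk, Ncr1 and Cd3e were left out. So were nuclei with over 1 UMI of Xcr1 and Clec9a, genes of type 1 conventional dendritic cells (cDC1), or of Cd209a and Mgl2, genes of type 2 (cDC2), and those with over 2 UMIs of C1qa, C1qb and C1qc, genes of macrophages. This left 4872 pDC nuclei of 40915 nuclei in all.

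The livers came from C57BL/6J mice kept off the DDC diet (D0) or after 5 days (D5) on chow with 0.1% DDC (3,5-diethoxycarbonyl-1,4-dihydrocollidine), a compound that injures the bile ducts. The labels name no transgene or deletion, and the number of mice behind a library is not given. The study's methods describe young adult mice, whose cells were enriched with magnetic beads before sorting. Live CD45+ CD64- CD11c+ cells were sorted before the nuclei were isolated. Mouse pDCs carry little CD11c on their surface, and which part of the liver's pDCs passed this gate was not measured. Each day is 1 library with no replicate, so no test between days was possible. All intervals given are 95% intervals that cover counting error only, and library and day cannot be told apart.

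pDCs are dendritic cells that resemble lymphocytes in shape and in some of their genes. They sense viral RNA and DNA in endosomes through the receptors TLR7 and TLR9 and can then release large amounts of type I interferon. Their identity depends on the E protein TCF4, working with partners such as RUNX2, BCL11A and SPIB, whereas ID2, an inhibitor of E proteins, is known to favour conventional dendritic cells. In the resting state they hold little MHC class II on the surface and are weak at presenting antigen.

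The called barcodes numbered 16260 at D0 and 27873 at D5, with a median of 1799 and 2790 UMIs. Of these, 14282 and 26633 had at least 1000 UMIs. The same barcode sequence occurred in both libraries 591 times, 5 of them among pDC nuclei. The library of D5 was thus deeper per nucleus, which bears on a rule that asks for a fixed number of UMIs.

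The rule found 2544 pDC nuclei at D0, or 17.8% of the nuclei (17.2 to 18.5). At D5 it found 2328, or 8.74% (8.40 to 9.09), so that the share at D0 was 2.04 times that at D5. The nuclei sorted at D5 held more of other types, for instance 13.6% cDC2 nuclei against 5.24% at D0, and a share cannot tell fewer pDCs from more of other cells. When every barcode was first thinned to 1000 UMIs, the shares were 15.4% and 5.77%. The pDC nuclei had a median of 1640.5 UMIs and 5171 ATAC fragments at D0, and 1921.5 UMIs and 4158 fragments at D5.

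The exclusions took out many nuclei. Without them 4491 nuclei at D0 (31.4%) and 3835 at D5 (14.4%) had at least 4 UMIs of the rule genes. The 1947 nuclei excluded at D0 had a median of 5235 UMIs and the 1507 excluded at D5 one of 5095, well above those of the pDC nuclei. A doublet score of 0.2 or more was found in 51.8% of the excluded nuclei at D0 and 63.6% at D5, against 11.2% and 19.2% of the pDC nuclei. Nuclei with such a score were kept in the values below, and list medians without them are given where they moved. Of 160 single genes named, 62 moved by more than their counting interval without these nuclei and 2 turned their sign.

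The rule genes varied widely among the members. A pDC nucleus had a median of 9 rule-gene UMIs at D0 and 8 at D5, with a highest value of 52 and 34. At least 3 different rule genes were found in 88.0% of the nuclei at D0 and in 86.0% at D5. All 7 were found in 29 and 27 nuclei, and 28 and 31 nuclei were chosen through 1 gene alone.

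Genes outside the rule showed where its threshold fell. Tcf4, the gene of the pDC-defining E protein, was at 5393 CPM (counts per 1000000 UMIs of these nuclei) in D0 nuclei with exactly 4 rule UMIs, just inside the rule, and at 4075 CPM in those with exactly 3, just outside. At D5 the values were 4484 and 3637 CPM. Nuclei with 0 or 1 rule UMI had 488 CPM at D0 and 524 at D5. Mctp2 and Blnk were at 107 and 45.9 CPM at 0 or 1 UMI and at 2544 and 1119 CPM at 6 or more on D0, where Blnk had 1167 CPM at exactly 4. The 223 nuclei at D0 and 248 at D5 with exactly 3 rule UMIs were between members and nuclei with 0 or 1 rule UMI in these 3 genes, with Mctp2 at 1444 and 934 CPM.

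**Figure D1:**
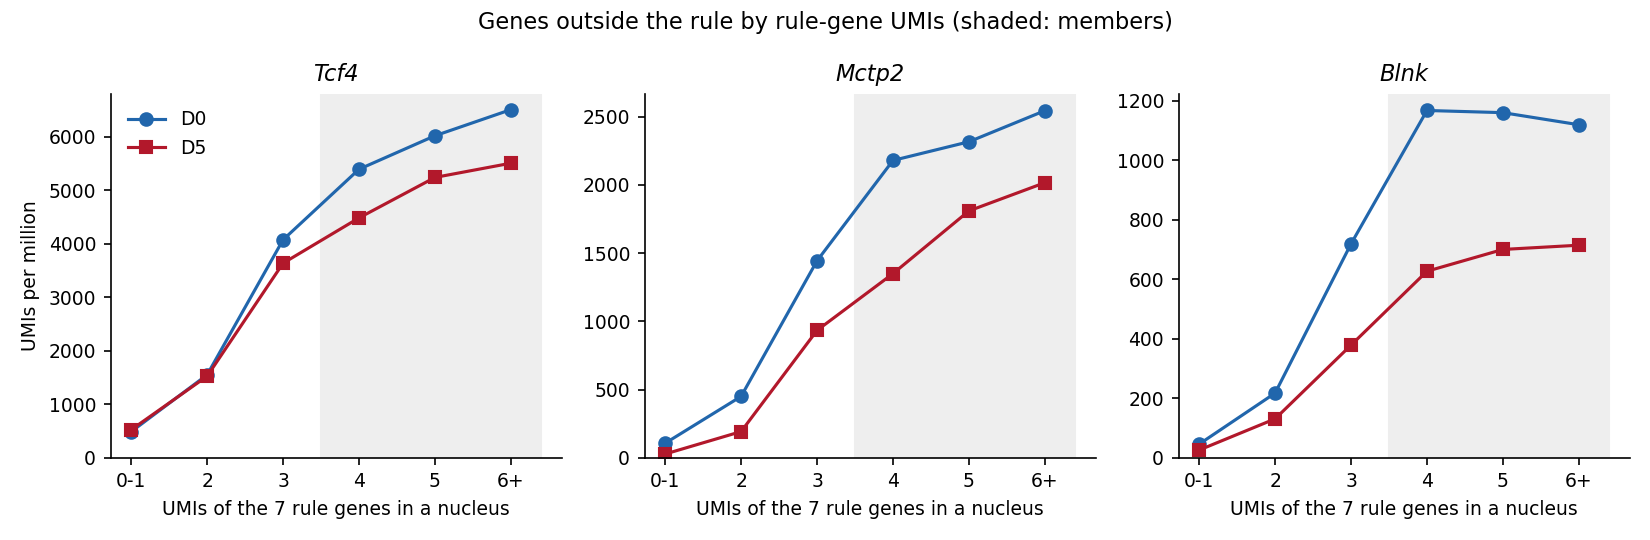
Tcf4, Mctp2 and Blnk in CPM (vertical axes, from 0) in nuclei grouped by their UMIs of the 7 rule genes (horizontal axes), with D0 as circles and D5 as squares, over nuclei that met the exclusions. Levels climb steeply from 0-1 to 4 rule UMIs, and nuclei with 3 rule UMIs (Tcf4 4075 CPM at D0) lie near the shaded members.

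The label pDC was set beside further pDC markers that the rule did not use. Markers of other types were added, some of which the rule had used to leave nuclei out. Each was summed over the nuclei of a class. The classes set beside pDC were cDC1 (625 nuclei at D0, 973 at D5), cDC2 (748 and 3619), NK and T (879 and 850) and preDC (62 and 327), all chosen by UMIs of a few genes. The last is a class with UMIs of Gria3 and Ly6c2, named after precursors of dendritic cells. At D0 it held 139876 UMIs and 343750 fragments in all, so its low values of that day rest on few counts. "Other nuclei" are all nuclei with at most 1 rule UMI (8525 and 21027), whatever their type. These markers come from the same RNA that chose the nuclei, so their levels are a description.

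Tcf4 stood at 6391 CPM in pDC nuclei at D0 and 5379 at D5, against 378 and 446 CPM in other nuclei. After thinning to 1000 UMIs, a Tcf4 UMI was found in 98.5% of the pDC nuclei at D0 and 97.9% at D5, and in 16.3% and 14.7% of NK and T nuclei, which should lack it. Runx2, the gene of a factor that works with TCF4 and guides pDC exit from bone marrow, had 1381 and 1148 CPM against 124 and 114 CPM. Spib, an ETS factor gene of pDCs and B cells, had 173 and 89.0 CPM against 16.04 and 10.6 CPM. Bcl11a, the gene of a zinc finger factor needed for pDC development, had 668 and 588 CPM against 123 and 153 CPM. Each of these was higher in pDC nuclei than in other nuclei on both days.

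On the surface, Bst2 (the tetherin gene, recognised by the antibody PDCA-1) had 459 and 419 CPM in pDC nuclei and 140 and 170 CPM in other nuclei. Klra17 had 334 and 302 CPM against 33.7 and 77.9 CPM, and Cd300c had 298 and 208 CPM against 32.4 and 20.2 CPM. The B cell markers were near 0: Vpreb3 had no UMI on either day, and the list summed to 35.9 CPM at D0 and 22.6 at D5, where other nuclei held 35.5 and 23.1 CPM. The list of plasma cell genes summed to 41.4 and 31.5 CPM, most of it from Mzb1 and Prdm1.

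Some RNA of other types was present. The rule left out nuclei by Txk and Ncr1 of the NK cell list and by C1qa, C1qb and C1qc of the macrophage list. The sums of these lists in pDC nuclei were thus partly set by the rule. The NK cell list summed to 928 CPM in pDC nuclei at D0 and 518 at D5, against 7078 and 6009 CPM in NK and T nuclei. Clec9a, allowed at up to 1 UMI, was at 126 and 103 CPM, and MHC class II genes were abundant. The macrophage list held 40.3 and 57.3 CPM and the hepatocyte list 173 and 223 CPM, most of the latter from Apoe and Trf, with Alb at 8.17 and 3.50 CPM. How much of this is free RNA or a second nucleus in the droplet was not tested.

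The preDC class shared some RNA with pDCs. It had 3803 and 3368 CPM of Tcf4, and its Siglech level of 336 and 241 CPM was above the 30.8 and 23.8 CPM of other nuclei. Its rule allows any number of Siglech UMIs, while the other 6 rule genes were held to at most 1 UMI.

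**Figure D2:**
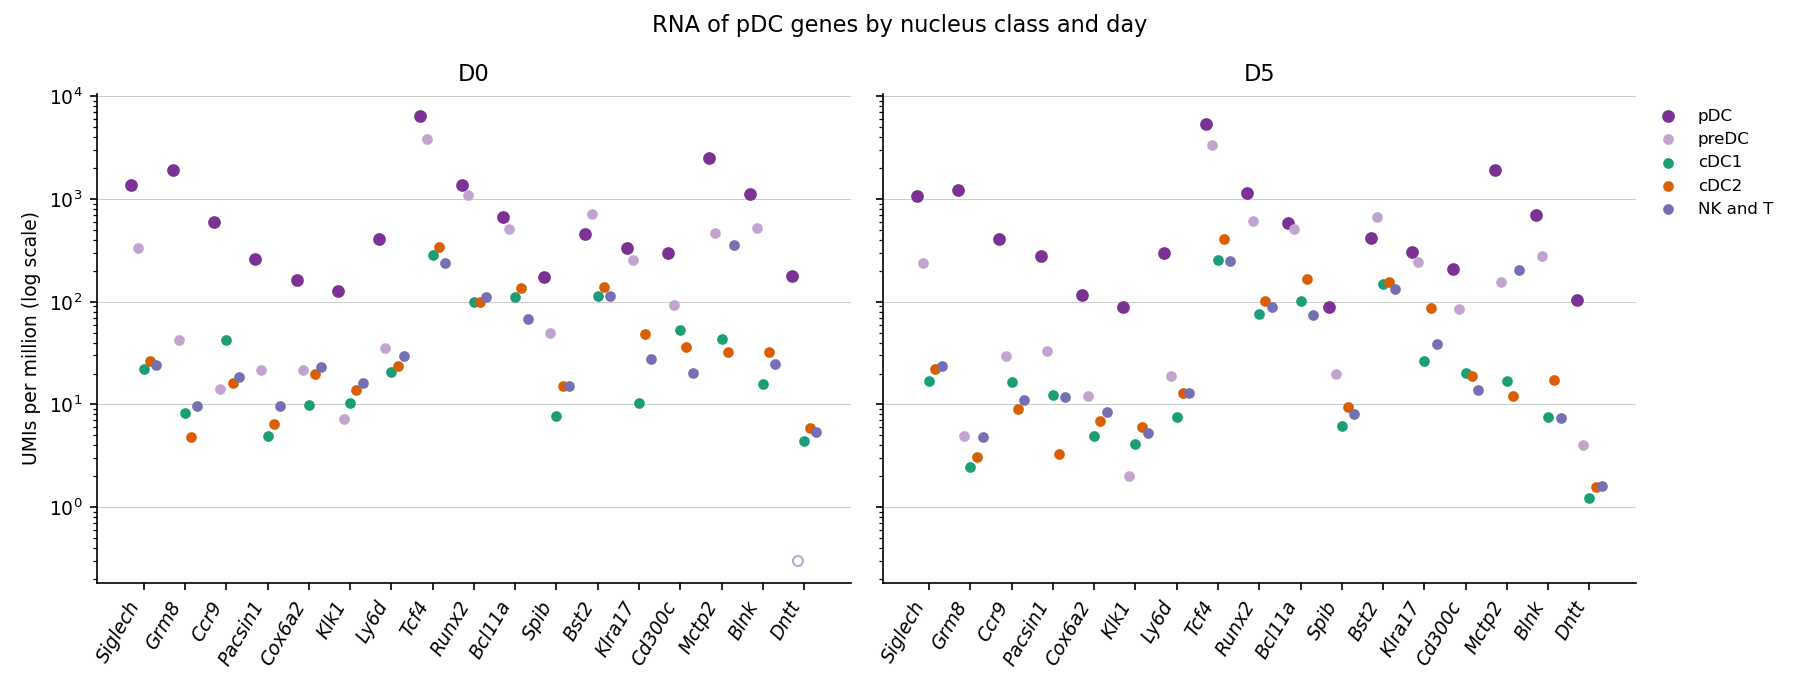
RNA in CPM (log scale) of the 7 rule genes, left, and of genes outside the rule, right, by nucleus class at D0 and at D5; vertical bars on the pDC points are 95% counting intervals, mostly narrower than the point, and open circles are values of 0. The pDC points lie above those of cDC1, cDC2 and NK and T nuclei for every gene drawn, and preDC points are near them for Tcf4, Bcl11a and Klra17 and above them for Bst2.

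Among the rule genes, most levels were lower at D5. Siglech, the sialic acid-binding receptor commonly used to mark mouse pDCs, had 1366 CPM (1335 to 1398) at D0 and 1070 (1044.5 to 1096) at D5, a log2 ratio of D5 over D0 of -0.35 (-0.40 to -0.30). Grm8, a metabotropic glutamate receptor gene, went from 1896 to 1228 CPM (-0.63; -0.67 to -0.58). Ccr9, the receptor for the chemokine CCL25, went from 592 to 407 CPM (-0.54). These 3 genes were the ones that gave the rule most of its UMIs.

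Ly6d, which marks lymphoid progenitors as well as pDCs, had 412 CPM at D0 and 301 at D5 (-0.46). Klk1, a kallikrein protease gene, had 128 and 88.8 CPM (-0.53), and Cox6a2, a subunit of mitochondrial complex IV, had 163 and 115 CPM (-0.50). Pacsin1, a gene for a membrane-shaping adaptor protein, differed, with 261 and 279 CPM and a ratio of 0.09 whose interval (-0.01 to 0.20) included 0. The 7 genes together had 4818 CPM at D0 and 3489 at D5, and in other nuclei 128 and 72.8 CPM.

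The size of this difference moved with the choice of nuclei and with thinning. The median ratio of the 7 genes was -0.50. It was -0.30 without the nuclei of high doublet score, with Siglech at -0.15. It was -0.16, with Siglech at 0.02, when every barcode was first thinned to 1000 UMIs. The thinned counts then chose the nuclei and also gave the ratios. The same holds for all ratios, medians and gene counts given below for nuclei chosen after thinning, or as after thinning. Since the rule used these genes, no more was read from their RNA alone. They remain in the counts below of genes above other nuclei.

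Of 8673 genes with a mean of at least 10 CPM, 814 (9.39%) were at least 2-fold above other nuclei in both libraries, the 7 rule genes among them. Genes outside the rule were then ranked by their level in pDC over other nuclei. Among those with at least 50 CPM in pDC nuclei in both libraries, the 20 that ranked highest were Tenm4, Dntt, Blnk, Zc3h12b, Prkca, Agbl1, Lrp8, Zfp521, Chdh, Cmah, Olfr164, Sema4b, Ncald, Paqr5, Eldr, Fam169b, Gm30211, Ppm1e, Gm12649 and Efna5. Dntt, the terminal transferase that adds bases at immunoglobulin gene joins, had 178 and 104 CPM in pDC nuclei, and 7.21 and 1.95 CPM in other nuclei. Blnk, the adaptor of B cell receptor signalling, had 1125 and 704 CPM against 34.4 and 21.1 CPM. Prkca, protein kinase C alpha, had 1996 and 1301 CPM against 86.5 and 26.1 CPM, and in NK and T nuclei 241 and 159 CPM. In preDC nuclei Blnk had 522 and 278 CPM, Prkca 279 and 125 CPM and Dntt 0 and 3.99 CPM.

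Cmah, which makes the sialic acid Neu5Gc, had 754 and 531 CPM against 11.9 and 4.45 CPM. Lrp8, a receptor for reelin and apolipoprotein E, had 561 and 375 CPM against 24.0 and 14.9 CPM. Of the 20, 15 were lower at D5 beyond counting error and none was higher beyond it. In nuclei chosen after thinning, Fam169b was at 0.51, Gm30211 at 0.53 and Eldr at 0.04. Of all 8673 genes, 14.9% were higher and 36.2% lower beyond counting error, which abundant genes pass more readily than sparse ones. The ratios of the 20 ran from -0.92 (Tenm4, a teneurin gene) to 0.15 (Efna5, the ephrin A5 gene). Zfp521, a zinc finger factor gene also known from B cell progenitors, was at -0.53 and Ppm1e, a phosphatase gene, at 0.04.

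Open chromatin of the same nuclei was not used by the rule and is the independent readout. Before its values, the sequence next to the start sites of 4 genes is printed, since these places were open in the nuclei. They were searched for letters that E proteins, RUNX factors, ETS factors and interferon-activated factors are known to bind. Each is the 250 bases upstream of a RefSeq start site on GRCm38.p6, written 5′ to 3′ along the gene, and overlaps a peak in both libraries. Siglech and Ccr9 are on the plus strand, Bst2 and Spib on the minus strand. Capitals mark matches, on either strand, to CAGGTG (the E-box preferred by E proteins), TGTGGT (RUNX), GAGGAA (ETS factors such as SPIB), or to the interferon response element, here GAAA, any 2 bases and GAAA again. In Bst2, 2 matches of the last overlap.
Siglech chr7:55767934-55768183: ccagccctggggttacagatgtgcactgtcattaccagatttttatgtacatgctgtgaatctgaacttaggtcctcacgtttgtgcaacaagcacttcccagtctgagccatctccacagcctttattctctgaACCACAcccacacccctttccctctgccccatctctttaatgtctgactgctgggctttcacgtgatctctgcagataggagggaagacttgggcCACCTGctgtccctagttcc
Ccr9 chr9:123766961-123767210: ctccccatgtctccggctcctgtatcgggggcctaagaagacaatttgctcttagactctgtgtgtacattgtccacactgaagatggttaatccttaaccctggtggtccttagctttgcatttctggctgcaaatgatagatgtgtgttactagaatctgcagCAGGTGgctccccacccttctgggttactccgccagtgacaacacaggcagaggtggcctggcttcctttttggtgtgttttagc
Bst2 chr8:71537473-71537722: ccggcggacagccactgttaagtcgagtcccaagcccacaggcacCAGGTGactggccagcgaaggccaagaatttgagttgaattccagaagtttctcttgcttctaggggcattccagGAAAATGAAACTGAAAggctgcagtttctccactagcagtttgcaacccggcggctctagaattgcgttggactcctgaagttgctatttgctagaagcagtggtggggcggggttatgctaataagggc
Spib chr7:44532072-44532321: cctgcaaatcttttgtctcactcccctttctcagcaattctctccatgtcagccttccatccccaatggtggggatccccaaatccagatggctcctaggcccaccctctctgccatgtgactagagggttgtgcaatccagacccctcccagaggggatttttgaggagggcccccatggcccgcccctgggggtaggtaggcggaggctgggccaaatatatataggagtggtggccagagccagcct
The upstream sequence of Siglech held 1 E-box and 1 RUNX match, that of Ccr9 held 1 E-box, that of Bst2 held 1 E-box and the 2 interferon elements, and that of Spib held none of the 4 motifs. In RefSeq the non-coding gene Gm39015 overlaps the Siglech window and Gm17021 the Ccr9 window. A match of letters is not a bound site. Of the 27 genes made up by the rule genes and the 20 named above, 22 had a promoter in the table. The E-box was present upstream of 9 of them (40.9%), against 19.4% of 27025 genes. The RUNX letters were present in 18.2% against 15.9%, the ETS letters in 9.09% against 25.9%, and the interferon element in 13.6% against 3.46%. Counted by promoter, as a gene can have several, the E-box share was 31.25% against 17.2% and the RUNX share 12.5% against 14.05%. The ETS share was then 9.375% against 23.25% and that of the interferon element 9.375% against 2.98%. With 22 genes, 1 gene more or less moves such a share by several percentage points.

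At Siglech the peak beside the start site (chr7:55767771-55768612 at D0) gave 27.0 CPM (here counts per 1000000 fragments in peaks) in pDC nuclei at D0 and 32.8 at D5. Other nuclei had 5.92 and 7.42 CPM, NK and T nuclei 2.58 and 1.79 CPM, and preDC nuclei 16.0 and 29.8 CPM. Siglech was thus open in preDC nuclei too, and there at D5 close to the pDC level. The preDC value at D0 rests on few fragments of 62 nuclei. At Ccr9 the printed window had 17.4 and 17.7 CPM in pDC nuclei against 1.43 and 1.10 CPM in other nuclei. At Spib the printed window had 22.0 and 21.2 CPM in pDC nuclei and 5.23 and 7.08 CPM in other nuclei. At Bst2 it had 39.5 and 39.4 CPM in pDC nuclei and 38.8 and 37.2 CPM in other nuclei, so this promoter was open to a like degree in both while Bst2 RNA was not. Over all peaks within 2 kb of the Bst2 start, pDC nuclei had 68.9 and 68.3 CPM and other nuclei 43.3 CPM on both days.

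Over all genes, peaks within 2 kb of the start sites were summed, and 13676 genes with a mean of at least 10 CPM were compared. Of these, 500 (3.66%) were at least 2-fold above other nuclei in both libraries and 105 (0.768%) at least 2-fold below. Of 6 rule genes compared, 4 were above, with a median log2 ratio of 1.29 at D0 and 1.31 at D5. Of 15 compared among the 20 highest RNA genes, 11 were above, with medians of 1.63 and 1.69. All genes compared in RNA had medians of -0.14 and -0.10. The rule and the RNA ranking both used RNA, so these counts describe how RNA and chromatin of the same nuclei go together.

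Klk1 was the rule gene furthest above other nuclei, with 18.6 and 21.0 CPM in pDC nuclei against 0.821 and 0.579 CPM in other nuclei (log2 ratio 4.51 and 5.18). Iglc3, a constant region gene of the lambda light chain, had 20.7 and 18.0 CPM against 0.551 and 0.0716 CPM. Tlr7, the receptor of single-stranded RNA, had 16.3 and 16.1 CPM against 3.05 and 3.26 CPM. Grm8 had 27.2 and 27.0 CPM against 13.4 and 13.2 CPM. Ly6d had 6.41 and 4.59 CPM, below the level at which genes were compared, against 0.630 and 0.418 CPM.

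The transcription factor genes differed from this. Of 12 pDC factors compared only Spib was at least 2-fold above other nuclei in both libraries, and the list medians were 0.09 and 0.10. Bcl11a had 75.6 and 83.2 CPM in pDC nuclei and 59.1 and 68.2 CPM in other nuclei, and Runx2 had 104 and 105 CPM against 118 and 128 CPM. Tcf4 had 230 and 244 CPM against 164 and 179 CPM over a stretch of many listed start sites and 39 peaks at D0, which also holds peaks that need not belong to a start site. Mctp2 had 54.4 and 52.0 CPM against 23.8 and 15.6 CPM, but NK and T nuclei had 53.4 and 54.7 CPM.

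**Figure D3:**
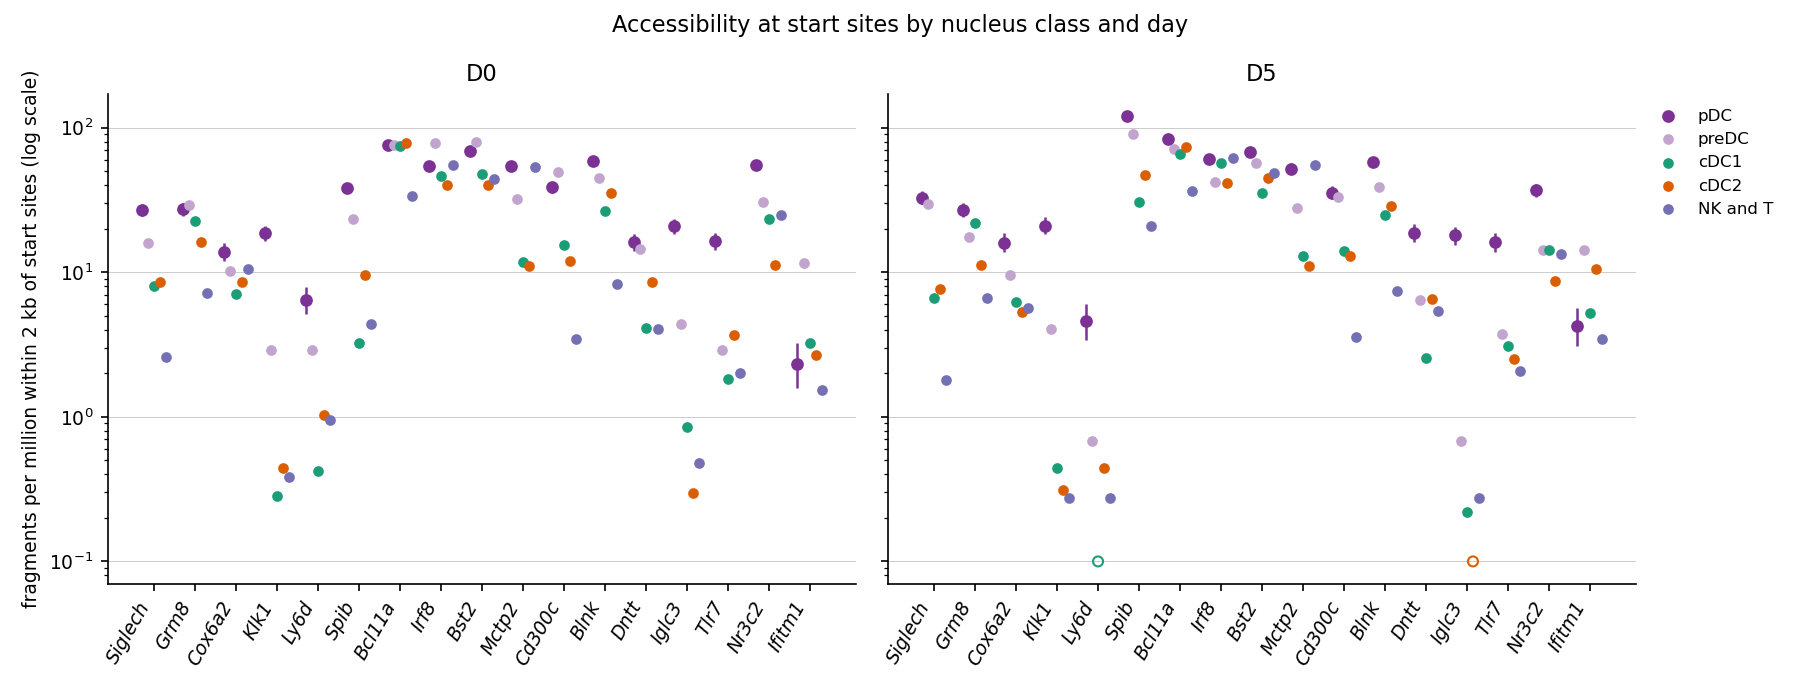
Accessibility in CPM over the peaks within 2 kb of the start sites of each gene (log scale) by nucleus class at D0 and D5; vertical bars on the pDC points are 95% counting intervals and open circles are values of 0. Klk1, Ly6d, Iglc3 and Tlr7 are well above cDC1, cDC2 and NK and T nuclei in pDC nuclei, whereas Irf8 is close to them; Spib has 1 more peak in its window at D5 than at D0, so its pDC points (38.2 and 121 CPM) cannot be compared between days.

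Regions where peaks of both libraries overlap numbered 127216, of which 25725 had a mean of at least 10 CPM in pDC nuclei. Of these, 2677 (10.4%) were at least 4-fold above other nuclei in both libraries. The 10 furthest above other nuclei, picked after their values were seen, lay 4041 to 185094 bp from the nearest start site. That at chr12:36765347-36766258 had 13.9 and 13.7 CPM in pDC nuclei against 0.103 and 0.165 CPM in other nuclei. That at chr6:144513422-144514281, 32197 bp from the nearest start site (Sox5os2), had 26.7 and 18.4 CPM against 0.515 and 0.251 CPM.

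RNA of pDC nuclei at D5 was then set beside D0. Among the 8673 genes compared, 107 (1.23%) were at least 2-fold higher at D5 and 179 (2.06%) at least 2-fold lower, with a median log2 ratio of -0.14. Scaling by TMM or by DESeq2 size factors instead of total UMIs raised every ratio by 0.15 or 0.14, which centred the median near 0. The split was then 189 higher and 97 lower with TMM, and 186 and 98 with DESeq2. Without the nuclei of high doublet score it was 71 and 157. Ratios below are relative to total UMIs, and a ratio near -0.14 is that of the median gene.

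Most genes with at least 2-fold more RNA in pDC than in other nuclei were lower at D5 in the main values. This set of 933 genes, taken by the mean of both days, includes the 7 rule genes. Of the 933, 0 were 2-fold higher (0.0%) at D5. In this set 51 were 2-fold lower (5.47%), and the median was -0.39. Beyond counting error 669 were lower and 13 higher, against 36.2% and 14.9% of all genes, and 6 of the 669 were rule genes. How the set as a whole differed between days in other nuclei was not counted. Of 7301 genes within 2-fold of other nuclei, 75 (1.03%) were higher and 78 (1.07%) lower. Of 439 genes at least 2-fold below other nuclei, 32 (7.29%) were higher and 50 (11.4%) lower. Of the genes above other nuclei, without the nuclei of high doublet score 32 were lower and 2 higher, with TMM factors 21 were lower and 2 higher, and in nuclei chosen after thinning 36 were lower and 6 higher of 1154. The medians of the rule genes and of pDC surface genes were then also closer to 0, at -0.16 and -0.04. Of the 107 genes that were higher, 103 had less RNA in pDC than in other nuclei on both days, and 97 had the same direction in cDC1, cDC2 and NK and T nuclei. Of the 179 lower genes, 144 had the same direction in all of these. Most 2-fold differences had the same direction in these classes of the same libraries. How often either holds among all genes compared was not counted. These counts thus do not set the 2-fold genes apart from other genes.

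**Figure D4:**
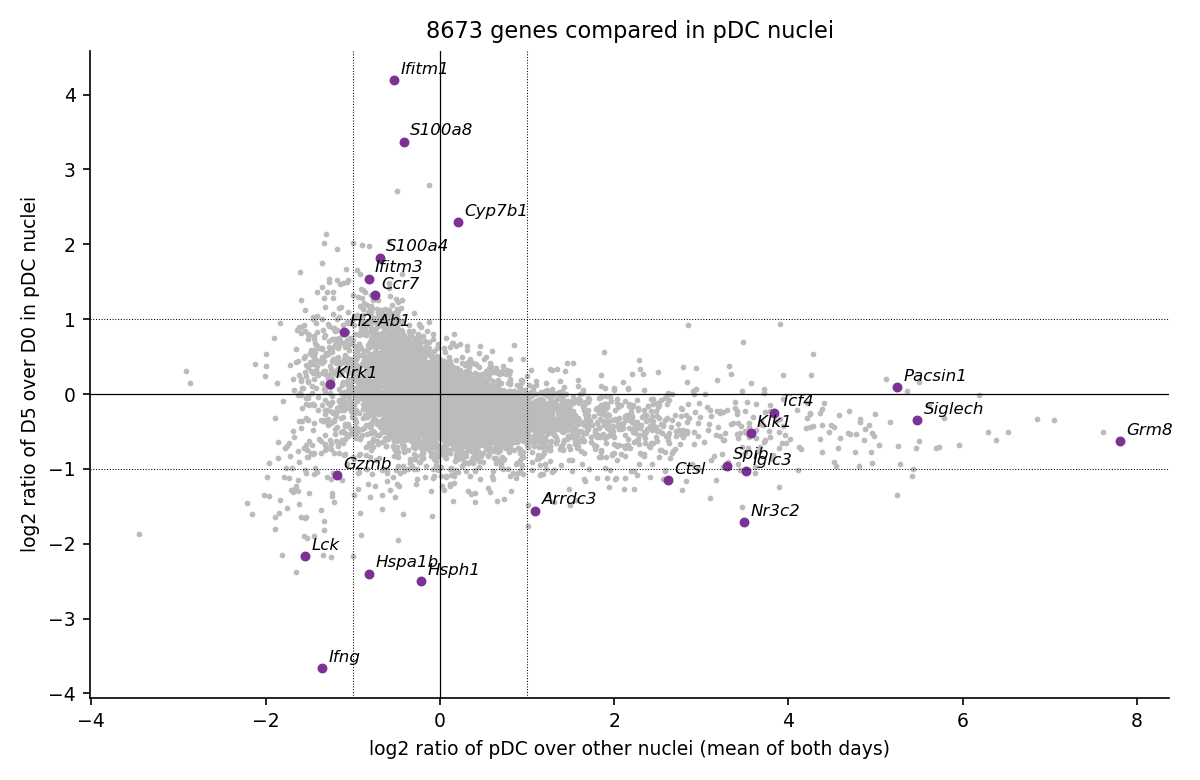
Each point is 1 of 8673 genes; the horizontal axis is the log2 ratio of CPM in pDC over other nuclei (mean of the days) and the vertical axis the log2 ratio of D5 over D0 in pDC nuclei, with dotted lines at 2-fold. Ifitm1 (4.19) and S100a8 lead the genes higher at D5 at a level below other nuclei, and no gene at least 2-fold above other nuclei passes the upper line.

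Of the 51 genes high in pDCs and 2-fold lower at D5, 39 were under 2-fold in at least 1 alternative. Both limits of this set, 10 CPM and 2-fold above other nuclei, used the mean of both days. A high level at D0 could thus bring a gene into the set. At D5 Baiap2l1, Bmp6, Notch3, Etv1 and Ppargc1a were under 10 CPM, and Baiap2l1 and Arrdc3 under 2-fold above other nuclei. Those named here were chosen after their values were seen. Baiap2l1, an adaptor gene of the actin skeleton, had the lowest ratio, from 16.7 to 4.93 CPM (-1.76). Its log2 ratio over other nuclei was 1.19 at D0 and 0.53 (-0.06 to 1.07) at D5. Nr3c2, the mineralocorticoid receptor gene, went from 49.99 CPM to 15.3 CPM, a log2 ratio of -1.71 (-2.06 to -1.37). Its level in other nuclei went from 4.92 to 0.896 CPM. A Nr3c2 UMI was found after thinning in 4.99% of pDC nuclei at D0 and 1.80% at D5. Accessibility within 2 kb of its start sites went the same way, from 55.2 to 36.9 CPM (-0.58 in shared regions; -0.76 to -0.40), as it did in other nuclei (-0.81).

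Arrdc3, an arrestin-domain gene that glucocorticoids and fasting are known to induce in other tissues, went from 59.5 to 20.2 CPM (-1.56; -1.87 to -1.26). Bmp6, a bone morphogenetic protein known for its role in liver iron control, went from 23.9 to 8.44 CPM (-1.51). Notch3, a Notch receptor gene, went from 21.7 to 8.28 CPM (-1.39). Over all alternatives, the ratio of Nr3c2 stayed between -1.71 and -1.34, that of Arrdc3 between -1.68 and -1.41 and that of Bmp6 between -1.58 and -1.31. Arrdc3 accessibility at its start sites, by contrast, was 171 and 175 CPM.

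Ctsl, the lysosomal protease cathepsin L, went from 467 to 211 CPM (-1.15; -1.25 to -1.05), and the ratio was -0.82 in nuclei chosen after thinning. Mast4, a kinase gene, went from 241 to 118 CPM and Sntb1, a syntrophin gene, from 237 to 109.5 CPM. The remaining ones included the metabolic regulator gene Ppargc1a (18.2 to 8.12 CPM), the transcription factor genes Etv1 (16.2 to 7.96 CPM), Rfx2 (66.9 to 33.3 CPM) and Tox3 (28.5 to 12.9 CPM), and the developmental regulator gene Mn1 (32.3 to 12.7 CPM). In nuclei chosen after thinning, 6 of these besides Ctsl were under 2-fold, with Etv1 at -0.33, Mn1 at -0.55, Mast4 at -0.72, Rfx2 at -0.74, Ppargc1a at -0.78 and Sntb1 at -0.94. Each of them had more RNA in pDC nuclei than in other nuclei on both days.

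The 10 genes highest at D5 relative to D0 were Ifitm1, S100a8, S100a9, Ccl1, Cyp7b1, Wfdc17, Dab2, Gzmc, Ifitm2 and S100a4. Ifitm1, a membrane protein gene that restricts virus entry, went from 19.2 to 351 CPM (4.19; 3.90 to 4.50). The share of nuclei with an Ifitm1 UMI after thinning went from 1.18% to 24.6% in pDC nuclei, and from 1.93% to 23.8% in NK and T nuclei. S100a4, a calcium-binding protein gene, went from 447 to 1581 CPM (1.82; 1.76 to 1.89), and from 910 to 2366 CPM in other nuclei. S100a8 and S100a9, neutrophil and monocyte genes, went from 2.09 and 3.04 CPM to 21.6 and 21.0 CPM, at levels like those of NK and T nuclei (16.2 and 15.4 CPM at D5), while the neutrophil marker Ly6g had no UMI. The neutrophil list as a whole summed to 16.7 and 50.1 CPM.

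Ifitm1 had little open chromatin at its start sites on either day (2.31 CPM in 1 peak at D0 and 4.22 CPM in 2 peaks at D5). Cyp7b1, an enzyme of oxysterol metabolism, went from 7.79 to 38.4 CPM and was the 1 gene of the 10 at a level above other nuclei (4.67 and 35.4 CPM) on both days, at D5 within counting error. Its ratio of 2.30 became 0.97 in nuclei chosen after thinning. Cyp7b1 was at 21.5 and 126 CPM in preDC nuclei, at 6.43 and 39.7 CPM in cDC2 nuclei and at 1.65 and 5.62 CPM in cDC1 nuclei. The preDC value at D0 rests on few UMIs of 62 nuclei. After thinning Cyp7b1 was found in 0.668% and 1.98% of pDC nuclei. How far free RNA accounts for these shared differences was not tested.

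The genes lowest at D5 were Ifng, Hsph1, Hspa1b, Atp8a2, Klrc1, Hspa1a, Lck, Dnajb1, Gimap4 and Gem. Heat shock genes made up 4 of them. Of 15 heat shock genes compared, 0 were higher and 12 lower beyond counting error (14.9% and 36.2% of all genes), 6 of them 2-fold, with a median of -0.67. Hspa1b, an inducible HSP70 gene, went from 653 to 124 CPM (-2.40; -2.51 to -2.29) and Hsp90aa1 from 866 to 370 CPM (-1.23). Heat shock genes were lower to a like degree in cDC1 (-0.57), cDC2 (-0.85) and NK and T nuclei (-0.82).

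Of the others, Ifng, Klrc1, Lck and Gimap4 are genes of lymphocytes. Ifng, interferon gamma, went from 48.5 to 3.82 CPM in pDC nuclei and from 382 to 110 CPM in NK and T nuclei. The NK cell list had 6 of 8 genes 2-fold lower, with a median of -1.24, and the T cell list 4 of 6, with a median of -1.20. Of all genes compared, 2.06% were 2-fold lower. In NK and T nuclei themselves these medians were -0.31 and -0.12, while the share of NK and T nuclei went from 6.15% to 3.19%. The rule had held Txk, Ncr1 and Cd3e, members of these lists, to 1 UMI together. Neither the effect of this limit nor the part of lymphocyte RNA from outside the pDCs in these values was tested.

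The transcription factors of pDCs differed little. Of 12 genes, 2 were higher and 10 lower beyond counting error (of all genes 14.9% and 36.2%), none 2-fold, with a median of -0.26 against -0.14 for all genes, of -0.11 with TMM factors and of -0.12 without the nuclei of high doublet score. Tcf4 had a ratio of -0.25 (-0.27 to -0.23), which was -0.06 without the nuclei of high doublet score and within 0.01 of 0 in nuclei chosen after thinning. Runx2 went from 1381 to 1148 CPM (-0.27), and was likewise near 0 after thinning. Irf8, a factor gene shared with cDC1, went from 1674 to 1317 CPM (-0.35), and Tcf12, another E protein gene, from 2100 to 1504 CPM (-0.48). Etv6, an ETS repressor gene, went from 1410 to 1243 CPM (-0.18). Spib had the lowest ratio of the group at -0.96 (-1.11 to -0.80), and -0.68 in nuclei chosen after thinning, while accessibility was 22.0 and 21.2 CPM in the printed window and higher by 0.15 (0.04 to 0.26) over shared regions within 2 kb of the start. Cbfa2t3, a corepressor gene that binds E proteins, and Runx1 were the 2 higher genes, at 0.17 and 0.15, but Cbfa2t3 was at -0.25 after thinning.

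Among factors of conventional dendritic cells, 4 of 9 were higher and 2 lower beyond counting error (14.9% and 36.2% of all genes), with a median of 0.13. The median became -0.07 without the nuclei of high doublet score and -0.12 in nuclei chosen after thinning. Id2 went from 345 to 552 CPM (0.68; 0.60 to 0.76), and its ratio was 0.45 and 0.32 under the same choices. Its level stayed below the 989 and 1058 CPM of other nuclei. Klf4 went from 169 to 137 CPM and Notch2 from 178 to 137 CPM, and these were the lower genes. In NK and T nuclei Id2 had 1186 and 1307 CPM.

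Of 29 surface and secreted pDC genes outside the rule, 2 were higher and 19 lower beyond counting error (14.9% and 36.2% of all genes), none 2-fold, with a median of -0.30. Without the nuclei of high doublet score the median was -0.14, and in nuclei chosen after thinning -0.04. Mctp2, a membrane-bound calcium sensor gene, went from 2501 to 1931 CPM (-0.37), but was at 0.01 in nuclei chosen after thinning. Bst2, at -0.13, was within 0.04 of 0 there and without the nuclei of high doublet score. Tex2 went from 1132 to 850 CPM (-0.41). Ptprc, which codes for CD45, went from 2744 to 2227 CPM (-0.30), and Cacna1e, a calcium channel gene, from 861 to 524 CPM (-0.72), which was -0.39 after thinning. Plac8 (615 to 755 CPM) and Atp1b1 (233 to 264 CPM) were the 2 higher genes.

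Genes that sense nucleic acids differed little between days. Of 26 compared, 3 were higher and 15 lower beyond counting error (of all genes 14.9% and 36.2%), none 2-fold, with a median of -0.22. Tlr7 had 147 CPM at D0 and 102 at D5 (-0.53), against 14.3 and 8.57 CPM in other nuclei. Pld4, a nuclease of endosomes, had 632 and 527 CPM and Unc93b1, which carries TLR7 and TLR9 to endosomes, 487 and 422 CPM. Tmem173, the gene of the DNA sensor STING, was among the 3 higher genes, with 34.0 and 61.1 CPM (0.85), a ratio that was 0.11 in nuclei chosen after thinning.

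No RNA of interferon alpha or beta was found. Of 20 interferon genes, 19 had no UMI in pDC nuclei on either day, all Ifna genes and Ifnb1 among them, and a count of 0 allows up to 0.570 CPM at D0 and 0.478 at D5. The exception was Ifnk, the interferon kappa gene, with 19 UMIs at D0 and 7 at D5. Chromatin at some of these genes was nevertheless open: at Ifnl2, a type III interferon gene, pDC nuclei had 23.7 and 27.1 CPM against 3.91 and 3.59 CPM in other nuclei, and at Ifna2 8.48 and 8.03 CPM against 2.10 and 1.96 CPM.

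Interferon-stimulated genes were split. Of 31 compared, 4 were higher and 12 lower beyond counting error, shares near those of all genes (14.9% and 36.2%), with a median of -0.24. Their summed level was nevertheless higher at D5, at 2573 CPM (2533 to 2613) against 2250 CPM (2209 to 2290), but without Ifitm3 it was lower, at 1876 against 2010.2 CPM. Ifitm3 was the 1 gene 2-fold higher, from 239 to 697 CPM (1.54; 1.45 to 1.63), and it went from 529 to 1118 CPM in other nuclei. The common interferon reporters lay low, with Isg15 at 31.6 and 29.1 CPM and Irf7, the factor that amplifies interferon production, at 69.6 and 54.1 CPM (-0.36). Trim30a (327 to 288 CPM) was lower beyond counting error.

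MHC class II genes and their partners in antigen presentation were mostly higher. Of 19 compared, 16 were higher and 3 lower beyond counting error (14.9% and 36.2% of all genes), with a median of 0.65. H2-Ab1, the class II beta chain of this strain, went from 2799 to 4966 CPM (0.83; 0.80 to 0.86), H2-Aa, the alpha chain, from 2880 to 5026 CPM (0.80), and Cd74, the invariant chain, from 5508 to 8918 CPM (0.70). Icosl, the ligand of the T cell receptor ICOS, was the 1 gene 2-fold higher, from 36.3 to 75.5 CPM (1.06; 0.81 to 1.31), and its ratio was 0.76 in nuclei chosen after thinning. Ciita, the activator of class II genes, went from 99.6 to 138 CPM (0.47) and Cd86, a costimulatory ligand, from 216 to 315 CPM (0.54), but after thinning they were at -0.0038 and 0.04. The inhibitory ligand gene Pdcd1lg2 went from 15.2 to 7.64 CPM (-0.99), with ratios from -1.89 to -0.85 over the alternatives.

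The class II list was also abundant outside pDCs, which bears on this difference. Its sum went from 15949 to 26425 CPM in pDC nuclei, from 38283 to 50231 CPM in other nuclei and from 18508 to 24065 CPM in NK and T nuclei. In cDC2 nuclei it was 63110 and 60444 CPM. The list median was 0.06 in cDC1, -0.02 in cDC2 and 0.15 in NK and T nuclei, and 0.32 in other nuclei as a whole. In pDC nuclei it was 0.51 without those of high doublet score and 0.38 in nuclei chosen after thinning. Accessibility at the class II start sites differed little between days, with a median of 0.11.

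**Figure D5:**
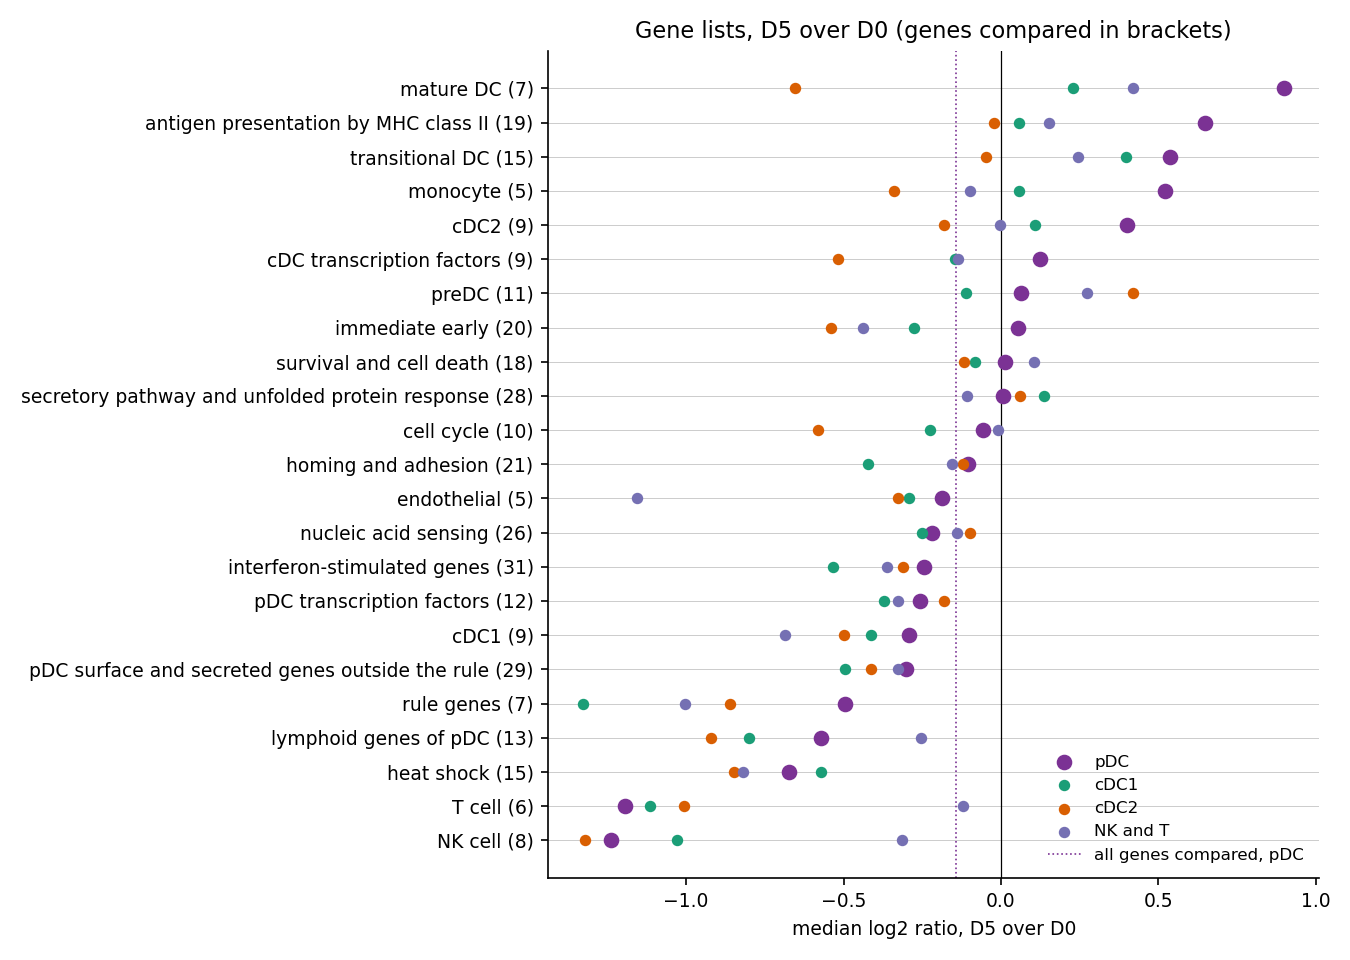
Median log2 ratio of D5 over D0 (horizontal axis) for each gene list with at least 5 genes compared, in pDC nuclei (large points), cDC1, cDC2 and NK and T nuclei; the dotted line marks all genes compared in pDC nuclei (-0.14). In pDC nuclei the MHC class II (0.65), transitional DC (0.54), monocyte (0.52) and cDC2 (0.40) medians are above 0, as is that of mature DC genes (0.90), which was -0.08 in nuclei chosen after thinning, and heat shock (-0.67), NK and T cell lists are lower.

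Transitional dendritic cells share genes with pDCs and cDC2, and their list was higher too. Of 15 genes compared, 13 were higher and 1 lower beyond counting error (14.9% and 36.2% of all genes), 4 of them 2-fold higher, with a median of 0.54, which was 0.51 to 0.68 over the alternatives. Besides S100a4, these were Ms4a6c (66.0 to 207 CPM, 1.65), Ms4a4c (33.8 to 89.8 CPM, 1.41) and Ifitm6 (36.5 to 86.9 CPM, 1.25). Cst3, cystatin C, went from 1981 to 3487 CPM and Crip1 from 1007 to 1459 CPM. The defining genes Cx3cr1 (17.5 and 23.9 CPM) and Axl (10.5 and 19.9 CPM) were low. Their ratios were less stable than the list median, from -0.17 to 0.59 for Cx3cr1 and from 0.24 to 1.07 for Axl over the alternatives. The list median was also 0.40 in cDC1, 0.24 in NK and T and 0.39 in other nuclei, and -0.05 in cDC2 nuclei. Other nuclei held more RNA of the list as a whole, with 10329 and 14192 CPM against 5563 and 9527 CPM in pDC nuclei.

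Lists of markers of other myeloid cells differed in direction. Of 9 cDC2 markers compared, 6 were higher and 0 lower beyond counting error, with a median of 0.40. Of all genes 14.9% were higher and 36.2% lower, which applies to each list of this paragraph. The rule had held Cd209a and Mgl2 to 1 UMI together. It had likewise limited Xcr1 and Clec9a of the cDC1 list to 1 UMI, and C1qa, C1qb and C1qc of the macrophage list to 2. Of the cDC2 markers Clec4a3, a lectin receptor gene, was the 1 that was 2-fold higher, from 12.7 to 31.0 CPM (1.29). Of 5 monocyte markers compared, 3 were higher and 0 lower, with a median of 0.52, among them Ccr2, a chemokine receptor gene (161 to 231 CPM). Of 9 cDC1 markers compared, 1 was higher and 5 lower, with a median of -0.29 and a sum of 2662 and 2184 CPM, and the 1 macrophage gene compared was within counting error. The cDC2 list summed to 630 and 728 CPM in pDC nuclei and to 957 and 1176.5 CPM in other nuclei, where its median was 0.36. In nuclei chosen after thinning the medians of the cDC2 and monocyte lists were 0.24 and 0.38. The part of cDC2 and monocyte RNA in the higher class II and transitional DC lists was not tested.

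Genes that pDCs share with lymphocytes were lower, as they were in other classes. Of 13 compared, 1 was higher and 10 lower beyond counting error (14.9% and 36.2% of all genes), 2 of them 2-fold, with a median of -0.57, which was -0.40 without the nuclei of high doublet score and -0.27 in nuclei chosen after thinning. The same median was -0.80 in cDC1, -0.92 in cDC2, -0.26 in NK and T and -0.95 in other nuclei. Iglc3 went from 237 to 116 CPM (-1.03; -1.17 to -0.90), with -0.53 after thinning, and Ighm, the mu heavy chain gene, from 452 to 298 CPM (-0.60). Dntt had a ratio of -0.78, and Rag1, the recombinase gene, had no UMI in pDC nuclei. Gzmb, the granzyme B gene, went from 267 to 126 CPM (-1.08), but NK and T nuclei held 1932 and 1928 CPM of it. Il7r, the interleukin 7 receptor gene, went from 284 to 228 CPM (-0.32).

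Among homing and adhesion genes, 5 of 21 were higher and 10 lower beyond counting error, against 14.9% and 36.2% of all genes. Ccr7, the receptor that guides dendritic cells to lymph nodes, went from 65.0 to 163 CPM (1.32; 1.15 to 1.51), and from 95.04 to 179 CPM in NK and T nuclei. Its ratio in pDC nuclei was 0.57 without those of high doublet score and 0.44 after thinning, under 2-fold. Cxcr3, a receptor for interferon-induced chemokines, went from 32.9 to 11.3 CPM (-1.54) and from 143 to 78.8 CPM in NK and T nuclei. Cd44, the hyaluronan receptor, went from 1461 to 994 CPM (-0.56) and Itga4, an integrin subunit, from 1457 to 1231 CPM (-0.24). Of 7 genes of mature dendritic cells compared, Ccr7 and Il4i1 were 2-fold higher, against 1.23% of all genes. Il4i1 was at 0.70 in nuclei chosen after thinning. The list median of 0.90 became 0.44 without the nuclei of high doublet score and -0.08 in nuclei chosen after thinning. The summed level of the list went from 1009 to 871 CPM.

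Of 28 genes of the secretory pathway, prominent in pDCs, 5 were higher and 10 lower beyond counting error, shares near those of all genes (14.9% and 36.2%), with a median of 0.01. Xbp1, the factor that expands the endoplasmic reticulum, went from 190 to 128 CPM (-0.57), and Sec61b, part of the protein channel, from 226 to 370 CPM (0.72). Hspa5, the chaperone BiP, went from 533 to 483 CPM (-0.14) and Atf6, a stress sensor gene, was at 460 and 458 CPM. Of 20 immediate early genes 8 were higher and 8 lower, where all genes gave 14.9% and 36.2%, and the list median of 0.05 was -0.28 in nuclei chosen after thinning. Nfkbia, the inhibitor of NF-kappaB, went from 417 to 679 CPM (0.70, and 0.13 in nuclei chosen after thinning), and Zfp36, which speeds the decay of cytokine RNA, from 565 to 462 CPM (-0.29). Btg2 (713 to 905 CPM) and Junb (620 to 711 CPM) were higher, but lower in nuclei chosen after thinning (-0.17 and -0.27). Of 10 cell cycle genes, 1 was higher and 3 lower, again near the shares of all genes, and Mki67 was found in 1.53% and 1.93% of thinned pDC nuclei.

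Across the genome, chromatin was compared between the days only in regions where peaks of both libraries overlap. Peaks found in 1 library alone, of 142799 at D0 and 147725 at D5, were left out, so regions that opened or closed most may be missing and the counts cannot be set against those of RNA. Of the 25725 shared regions compared, 6 (0.0233%) were at least 2-fold higher and 12 (0.0466%) at least 2-fold lower at D5, with a median of 0.03 and a range from -1.88 to 1.16. The lowest region by its interval, chr4:141546753-141547672, 8156 bp from the start of Spen, went from 23.4 to 6.35 CPM (-1.88; -2.28 to -1.50), and from 22.7 to 11.2 CPM in other nuclei. The region at chr10:41552263-41553266, close to Gm17196, went from 41.6 to 13.9 CPM (-1.58) against 8.19 and 5.75 CPM in other nuclei. NK and T nuclei had 11.9 and 9.67 CPM there and preDC nuclei 13.3 and 16.0 CPM, so that pDC nuclei stood above preDC nuclei at D0 and not at D5. The preDC value at D0 rests on few fragments of 62 nuclei. That at chr14:75834191-75835227 went from 48.0 to 17.7 CPM in pDC nuclei, whereas in other nuclei it went from 24.1 to 31.6 CPM.

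By the interval bound nearest 0, regions that gained were led by chr2:83929211-83930146, 11080 bp from the start of Zswim2. It had 14.2 and 31.2 CPM (1.14; 0.88 to 1.40) and 10.9 and 19.8 CPM in other nuclei. The highest ratio itself, 1.16, was that of a region 9105 bp from the start of Slc6a6. The region at chr10:128589764-128590507, 112 bp from the start of Erbb3, went from 8.86 to 19.0 CPM (1.10). The 5 regions that gained most did so in other nuclei as well, with ratios there from 0.58 to 0.95. Rule genes had a median ratio of 0.13 at their start sites, with Siglech at 0.28 (0.07 to 0.50), Klk1 at 0.18 (-0.09 to 0.44) and Ccr9 at -0.13 (-0.21 to -0.05).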

How the data were processed

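RNA and ATAC-seq of the same nuclei were measured in 1 library per day. Per the labels, the authors aligned the reads to mm10 with Cell Ranger ARC 2.0.2. They deposited raw counts, as UMIs per gene and as counts per peak of each library, a fragment mostly giving 2 peak counts. RNA and ATAC-seq of a nucleus were joined through identical counts over all genes, found for all 16260 called barcodes at D0 and all 27873 at D5. The barcode itself was the same for 16260 at D0 and could not be checked at D5. The headers of the gene matrices name Cell Ranger 6.0.2, though their counts equal the gene counts in the matrices that hold genes and peaks together. Which of these versions made them is not given in the sources used here. The counts were summed over the nuclei of a class and divided by the class total (CPM). Genes, start sites and regions with a mean of at least 10 CPM over both days were compared, "2-fold" means a log2 ratio of at least 1 either way, and "beyond counting error" means that the exact conditional binomial interval excluded 0. Levels have exact Poisson and shares Clopper-Pearson 95% intervals. Doublets were scored by a nearest-neighbour method after Scrublet (expected rate 0.1) and kept. Scaling used edgeR 4.0.16 (TMM) and DESeq2 1.42.0; other steps used Python 3.11.15, numpy 2.4.6 and scipy 1.17.1. The ratio was tested on simulated counts.

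Named were the rule genes, the 10 genes highest and the 10 lowest at D5 by the interval bound nearest 0, the 20 genes furthest above other nuclei among those with 50 CPM or more in both libraries, the 2-fold members and the 4 highest of each of 30 lists, and 5 shared regions at each end. Further genes were chosen after their values were seen. The members, lists and rule were chosen with earlier results of these data known. Of 460 genes in the lists, 4 were not found. Motifs were searched in RefSeq promoters (GRCm38.p6), the same assembly as mm10.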

Additional observations from a re-analysis of the deposited data

Results flagged for a closer look

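Genes past 2-fold in opposite directions in pDC nuclei and in cDC1, cDC2 or NK and T nuclei were searched for among 392 genes, the members of the gene lists that were compared and the other named genes. The 1 gene found was Gm13269, an unnamed gene model. Its log2 ratio of D5 over D0 was -1.16 in pDC nuclei (-1.76 to -0.58; 13.9 to 6.21 CPM) and 2.00 in cDC2 nuclei (0.09 to 5.08; 1.07 to 4.28 CPM). The cDC2 level at D0 rests on 2 UMIs, and the ratio in pDC nuclei was -0.78 in nuclei chosen after thinning, under 2-fold. The difference was not tested, since each day is 1 library.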

How the results depend on the processing

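No paired analysis was possible because each day is 1 library and the labels give no replicate numbers, so leaving out a replicate was not possible either. The pDC share was 14.7% at D0 and 7.06% at D5 with at least 6 rule UMIs, 15.7% and 7.51% with at least 3 different rule genes, 15.4% and 5.77% with the rule applied after thinning to 1000 UMIs, 10.4% and 5.01% among barcodes with at least 2000 UMIs, and 8.08% at D5 without nuclei of high doublet score. Without these nuclei, 71 genes were 2-fold higher, and of genes above other nuclei 32 were lower and 2 higher. That last count was 1 with at least 6 rule UMIs and 6 after thinning. TMM factors gave 189 higher and 97 lower genes, with 21 lower and 2 higher above other nuclei. DESeq2 factors gave 186, 98, 22 and 2. Without the filter on low values, 1840 genes were higher and 4663 lower, 1552 and 504 of those above other nuclei were lower and higher, and 2974 regions were higher and 9236 lower. A fold of 1.5 gave 508 higher and 769 lower genes, 227 lower and 3 higher above other nuclei, and 154 and 111 regions. Windows of 10 kb put 865 start sites above other nuclei. In all, 47 of 82 counts and shares stayed within the limits of 1.5 times or of the counting interval.

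These log2 ratios, of genes that differed beyond counting error, and list medians turned their sign. After thinning, Siglech was at 0.021, Eldr at 0.037, Bst2 at 0.034, Klra17 at 0.063, Mctp2 at 0.0092, Runx2 at 0.0007, Stat2 at 0.13, Btg2 at -0.17, Cbfa2t3 at -0.25, Ciita at -0.0038, Cx3cr1 at -0.17 and Junb at -0.27, and the mature DC list at -0.078. Without nuclei of high doublet score, Bst2 was at 0.0023, Junb at -0.043 and the endothelial list at 0.028. With TMM factors Bst2 was at 0.013, Hspa5 at 0.0027 and Klra17 at 0.0013, with DESeq2 factors Bst2 at 0.010, and without the filter the monocyte list at -0.0061. Of 1440 ratios of single genes over all alternatives, 1131 stayed within their counting interval. Leaving out the filter or using a fold of 1.5 cannot change such a ratio, and all 160 stayed in each. Thinning, which changed nuclei and counts alike, left 55 of 160 within it, moved 93 and turned the sign of 12. A further 5 genes within counting error turned too, with Fam169b at 0.51, Gm30211 at 0.53 and Mki67 at -0.52 after thinning, and so did 7 lists, among them that of cDC transcription factors (-0.12). The cause of these changes was not tested.

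The depth limits what can be said of sparse genes: a count of 0 over all pDC nuclei of a day allows 0.570 CPM at D0 and 0.478 at D5, and peaks were called by library, so start sites whose peaks differ between libraries, such as Spib and Pacsin1, were compared between days in shared regions only.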

Other observations

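Some of the same 392 genes differed between days in opposite directions in pDC and cDC2 nuclei, each beyond its counting error and most by less than 2-fold. Higher in pDC and lower in cDC2 nuclei were 30 genes, among them Cd74 (5508 to 8918 CPM in pDC nuclei) and H2-Eb1 of MHC class II, the costimulatory genes Cd40, Cd80 and Cd83, and Crip1 (1007 to 1459 CPM). Lower in pDC and higher in cDC2 nuclei were 8 genes, among them Tcf4, Bcl11a and the interleukin 7 receptor gene Il7r (284 to 228 CPM). Against cDC1 nuclei 8 and 5 genes did so, and against NK and T nuclei 11 and 3. The same counts were not made over all genes compared, so they have no general rate beside them. These differences were not tested. Some ratios in pDC nuclei were smaller under other choices of nuclei or with thinned counts. In nuclei chosen after thinning, Tcf4 was within 0.01 of 0, Bcl11a at -0.01, Il7r at -0.06, Nfkbia at 0.13, Cd74 at 0.38 and Crip1 at 0.62. Without nuclei of high doublet score Tcf4 was at -0.06, Bcl11a at -0.03, Il7r at -0.24 and Cd74 at 0.50. Junb, among the 30 genes, turned its sign under both choices.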
